A study of Mus musculus with 2 samples.

Results

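In whole brains taken from C57BL/6J mice on embryonic day 14.5, RNA splicing was examined through 5993 splice junctions that paired 2 annotated splice sites in a way no transcript of Ensembl 65 did. They were selected by measured values from the 1213972 junctions of the deposited mm9 list: the junction was not flagged as annotated, it had at least 10 reads over both replicates, its reproducibility value was 0.1 or less (low is reproducible), and both of its ends were ends of annotated introns on the same strand. Read number and reproducibility are therefore not findings here. The junction list carries reads of replicates R1 and R2, and the mm10 gene tables carry replicates 1 and 2, and no label ties one pair to the other. The study had 1 group of 2 libraries of polyadenylated, rRNA-depleted RNA over 200 nt, sequenced stranded and from both ends. The tissue came from littermates of both sexes, with no treatment or altered allele named in the labels. The labels name separate tissue samples from 1 donor entry and do not say how many embryos each pooled, so p-values or SDs would measure only these samples, and with 1 group no test between conditions could be made.

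Introns are removed by the spliceosome, which joins the donor site at the end of one exon to the acceptor site at the start of another. Cells make several proteins from a gene by changing which donor meets which acceptor, and leaving out an internal exon (exon skipping) is the most familiar form in mammals. Neurons are known for a large set of such choices, steered by RNA-binding proteins of the Nova, Rbfox, Ptbp, Celf and Elavl families, and for very short exons, called microexons, whose inclusion rises as neurons mature.

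The sequences below show what the junctions removed. Each was read from the GENCODE vM21 transcript (mm10) with the same identifier as the Ensembl 65 transcript, in the sense direction from 5′ to 3′. Lower case marks the exons joined to each other by the junction, and capitals mark the stretch that the junction left out. The first 4 had many reads and show skipping of whole exons or, in Klc1, of the end of an exon. The last 4 show exons of at most 27 nt.
Klc1, chr12:113027671-113031859, + strand, mm9: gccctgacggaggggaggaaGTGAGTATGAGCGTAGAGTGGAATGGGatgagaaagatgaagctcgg
Epn1, chr7:5044568-5045500, + strand, mm9: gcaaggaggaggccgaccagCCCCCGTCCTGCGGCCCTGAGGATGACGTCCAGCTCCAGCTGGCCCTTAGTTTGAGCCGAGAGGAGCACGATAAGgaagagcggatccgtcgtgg
Atp6v1h, chr1:5088215-5107470, + strand, mm9: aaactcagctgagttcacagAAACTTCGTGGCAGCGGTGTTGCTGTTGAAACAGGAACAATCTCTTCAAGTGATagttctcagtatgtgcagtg
Slc9a5, chr8:107881384-107882273, + strand, mm9: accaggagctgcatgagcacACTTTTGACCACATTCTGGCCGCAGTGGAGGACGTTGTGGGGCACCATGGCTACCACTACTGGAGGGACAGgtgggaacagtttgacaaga
Ptprz1, chr6:22972285-22974944, + strand, mm9: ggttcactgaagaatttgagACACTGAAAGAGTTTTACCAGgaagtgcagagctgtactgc
Srcin1, chr11:97398554-97412990, - strand, mm9: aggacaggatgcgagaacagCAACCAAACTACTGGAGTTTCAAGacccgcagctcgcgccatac
Dctn1, chr6:83133951-83137757, + strand, mm9: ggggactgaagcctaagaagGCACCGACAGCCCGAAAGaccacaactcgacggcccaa
Nbea, chr3:55796437-55804408, - strand, mm9: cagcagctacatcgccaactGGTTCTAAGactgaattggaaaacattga

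A second kind of junction joined a donor of one gene to an acceptor of another. For these, the 30 exon bases before the donor of the first gene are shown above the 30 exon bases before the corresponding donor of the second, and likewise the 30 bases after the acceptor. Capitals mark bases that differ between the 2 genes. In Hbb-bs and Hbb-bt, the adult beta globins, no base differed, so 1 sequence stands for both.
Hbb-bs and Hbb-bt, before the join: aagctgcatgtggatcctgagaacttcagg
Hbb-bs and Hbb-bt, after the join: ctcctgggcaatatgatcgtgattgtgctg
Tubb2b, before the join: agatcttcaggccGgacaacttCgtgttcg
Tubb2a, before the join: agatcttcaggccAgacaacttTgtgttcg
Tubb2b and Tubb2a, after the join: gccagagtggtgcaggaaataactgggcaa
Scd3 and Scd2, before the join: agccgagaagctggtgatgttccagaggag
Scd3, after the join: gtactacaagccTggcAtTctgctgatgtg
Scd2, after the join: gtactacaagccCggcCtCctgctgatgtg

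Markers of brain cells were present in both libraries, such as Tubb3 of young neurons (2753 TPM in the first and 2640 in the second gene table) and Fabp7 of radial glia (765 and 862). Transcripts of other cells were present as well. Among them, Hba-a1 of red cells had 1698 and 2091 TPM, while Col1a1 of mesenchyme had 36.6 TPM in the first table, below the 146 of the second. The junction list held 52704888 reads in R1 and 47694368 in R2, and the gene tables held 103493289 and 97539730 expected counts in replicates 1 and 2.

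Of 38027 unannotated junctions past the same read and reproducibility thresholds, the 5993 made up 15.8% (95% exact binomial interval 15.4% to 16.1%), 17873 had 1 new site and 14161 had 2. Intervals of this kind cover counting error only. The 5993 spanned longer introns, with a median of 6706 bases against 1382 for the 156029 annotated junctions past the thresholds. They held 0.799% of all junction reads in R1 and 0.851% in R2. Reads were few: the median was 21, 45.7% had 10 to 19 reads, and 10.6% had 100 or more. At the edge of the read threshold, 463 junctions had exactly 10 reads and a median read share of 3.31%, and 515 junctions just outside it had 9 reads and a share of 3.16%. At the edge of the reproducibility threshold, the highest value inside was 0.079, in 79 junctions with a median of 11 reads, and the nearest value outside was 0.136, in 57 junctions with a median of 10 reads.

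Both sites of 4983 junctions (83.1%, interval 82.2% to 84.1%) belonged to 1 gene. In 4575 of these a single annotated transcript held both sites, so the junction skipped the exons between them. The other 408 paired sites of 2 transcripts of the gene, 201 with an annotated exon in between and 207 without. The remaining 1010 junctions (16.9%) joined sites of different genes, in 561 gene pairs.

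Read share, the percentage of reads at a site that a junction took, averaged over its 2 sites, separated these classes. Junctions that skipped exons of 1 transcript had a median share of 4.67%, with 4.79% in R1 and 4.33% in R2, and the middle 50% lay between 1.88% and 13.4%. Those that paired sites of 2 transcripts had medians of 43.2% with an exon between and 47.0% without. Joins of different genes had a median of 39.1%, with 39.0% in R1 and 38.6% in R2. The differences between skips and the other 3 classes were thus many times larger than the difference between the replicates. They are a description, since the minimum of 10 reads shaped which junctions of low share entered.

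**Figure D1:**
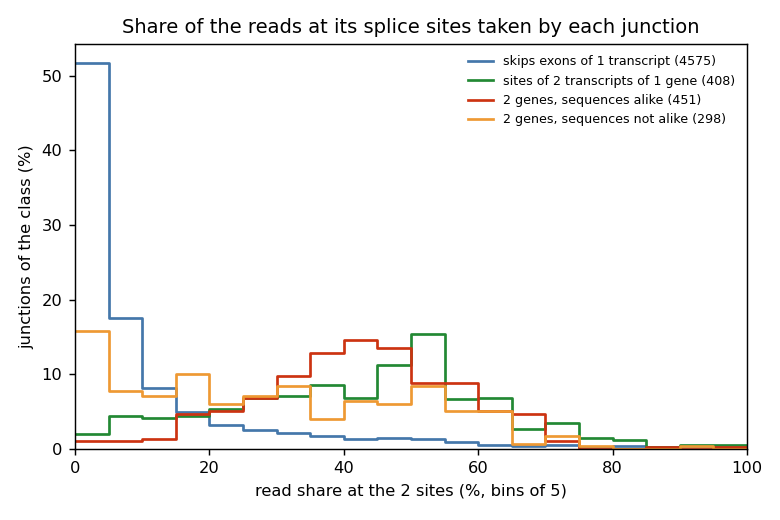
Distribution of read share (x axis, percent, bins of 5) as the percentage of junctions of each class (y axis), with the number in brackets; the 408 pairings of sites of 2 transcripts are drawn together, and joins of different genes whose exon sequences were not read are not drawn. Skips of exons crowd near 0 around their median of 4.67%, and joins between genes with alike sequences lie around 41.9%.

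The junction with the most reads within a gene was in Klc1. Klc1 encodes a kinesin light chain, which couples the motor to its cargo. Its junction, chr12:113027671-113031859, had 2473 reads in R1 and 2474 in R2 and a read share of 82.3%. It ended the exon 27 nt before the annotated donor that shares its acceptor, which had 943 reads in R1 and 952 in R2. The unannotated pairing therefore had the larger count in both replicates. The 27 nt in capitals in the Klc1 sequence are what it removed.

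Serpinh1, the collagen chaperone of the endoplasmic reticulum, had the second most-read junction, chr7:106497975-106501562. It had 1514 reads in R1 and 2367 in R2, a share of 95.1%, and skipped an annotated exon of 44 nt. The junctions into and out of that exon had 79 and 81 reads over both replicates.

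Epn1 encodes epsin 1, an adaptor of clathrin-coated vesicles. The skip of its 75-nt exon had 817 reads in R1 and 1245 in R2, with a share of 73.5%, while the junctions that include the exon had 409 and 374 reads in R1 and 324 and 357 in R2. The skip was the stronger choice in both replicates.

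Atp6v1h encodes a subunit of the proton pump that acidifies vesicles. Its 54-nt exon was skipped by 692 reads in R1 and 680 in R2, a share of 65.4%, and the same join is an intron of GENCODE vM21 and of the authors' de novo models. Bin1, an amphiphysin that bends membranes, skipped a 108-nt exon with 707 and 582 reads and a share of 77.0%. Cadps, needed for release of dense-core vesicles, skipped a 147-nt exon with 360 and 303 reads and a share of 61.2%. Sec31a, of the COPII coat, skipped a 39-nt exon with 354 and 319 reads and a share of 75.1%. In each of these genes the share, a mean over both sites, was above 60%. It was uneven between the sites in Sec31a, at 50.4% and 99.7%.

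Mllt1, of the super elongation complex, skipped a 126-nt exon with 430 reads in R1 and 439 in R2 (share 51.8%). Kmt2e, a chromatin reader of the MLL family, skipped a 126-nt exon with 267 and 545 reads (share 43.3%). The Kmt2e reads in R2 were more than those in R1 although R2 held fewer reads in all.

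Some of the most-read skips shift the reading frame. The 71-nt exon of Slc9a5, a sodium-proton exchanger, was skipped by 407 reads in R1 and 247 in R2 with a share of 75.9%. The 82-nt exon of G3bp1, a core protein of stress granules, was skipped by 333 and 271 reads with a share of 25.1%. Read from the annotated start, both skips met a new stop codon more than 50 nt before the last exon join, the position at which nonsense-mediated decay is classically triggered.

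The noncoding RNAs among the most-read junctions differed in read share. Meg3, an imprinted long noncoding RNA, had 1385 reads in R1 and 768 in R2 across a 34-nt exon, but a share of only 3.84%. A second Meg3 junction skipped 84 nt with 943 and 479 reads and a share of 3.41%. Pantr1, a noncoding RNA beside the Pou3f3 gene, differed from these: its skip of 47 nt had 879 and 455 reads and a share of 64.5%.

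Among junctions with at least 50 reads, some left almost no reads for the annotated form. Slc9a7, an exchanger of the Golgi, skipped a 60-nt coding exon with 55 reads in R1 and 99 in R2, and its share was 100% in both. Prdm10 skipped 36 nt with 201 and 168 reads and a share of 99.7%. Ryr1, the calcium release channel of skeletal muscle, skipped 15 nt with 71 and 43 reads and a share of 99.6%. Tacc2, a centrosomal protein, skipped 36 nt with 293 and 342 reads and a share of 94.1%. In these 4 genes the unannotated form was nearly the only one seen at its sites; the lowest share in a replicate was 93.0%, for Tacc2 in R2.

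**Figure D2:**
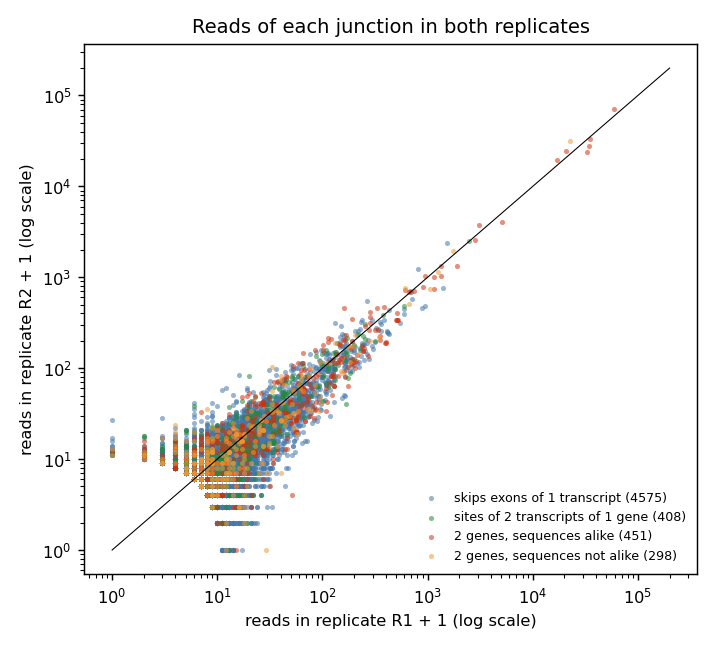
Reads of each junction plus 1 in replicate R1 (x axis, log scale) and R2 (y axis, log scale), coloured by class, with the line of equal reads. The points run along the line, and the junction with the most reads, at 59182 in R1 and 70319 in R2, joins genes with alike sequences.

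Reads were found in both replicates for 99.1% of the 5993 junctions, against 99.9% of the annotated ones; the reproducibility threshold favours this. Among the 1274 junctions with 20 or more reads in each replicate, the median ratio of R2 to R1, each as a share of its replicate's junction reads, was -0.05 on the log2 scale, and 110 (8.63%) differed 2-fold or more. For annotated junctions the corresponding share was 8.85% and the median 0.11. The directions differed. Of the annotated junctions 7.25% were 2-fold or more higher in R2 and 1.6% were lower, while of the 1274 it was 4.24% and 4.40%. Read share could be compared in 3884 junctions within a gene whose sites each had 50 or more reads per replicate. The median absolute difference was 1.32 percentage points, 122 junctions (3.14%) differed by 10 points or more, and Spearman's rho across junctions was 0.833. These junctions share 2 libraries, so rho is a description.

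Most skips were of a single exon. Of 4575 skipping junctions, 3952 (86.4%) left out 1 annotated exon, 450 left out 2, 107 left out 3 and 20 left out 6 or more. The largest skips were in collagens, whose genes hold many short exons in phase. Col4a1, a basement membrane collagen, had a junction over 26 exons (2937 nt) with 7 reads in R1 and 12 in R2. Col1a1, of fibrous collagen, had one over 17 exons (1287 nt) with 3 and 9 reads and one over 11 exons (783 nt) with 8 and 32 reads. Col12a1 had one over 15 exons (3492 nt) with 5 and 40 reads. The Col1a1 and Col12a1 junctions had more reads in R2, and Col1a1 as a gene differed between the libraries as given above; R2 is not tied to either gene table, and the part of tissue makeup in this was not tested. Their shares were at most 2.86%, except in Col12a1, at 55.4%, which had 27.5% in R1 and 63.4% in R2. The 30 exon bases before each join were compared with the 30 before the annotated join at the same acceptor. In Col4a1 19 were the same, in the Col1a1 junctions 21 and 25, and in Col12a1 10. The median within a gene was 8. The part of this likeness in the collagen skips was not tested.

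An exon keeps the reading frame when its length is a multiple of 3. Of the skipping junctions, 1635 (35.7%, interval 34.3% to 37.1%) left out a multiple of 3, beside 40.1% of the 192346 inner annotated exons. Skips of 1 exon gave 34.4% and skips of 2 or more gave 44.1%. Among the 2720 skips of 1 exon that was coding throughout, the share was 33.6%, beside 40.9% of coding inner exons. The gap to all inner exons was not seen among stronger junctions: with a minimum of 50 reads the share was 40.8%. With 10 or more reads required in R2 alone it was 39.9%, and in R1 alone 35.9%.

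Frame keeping differed between bands of read share. Skips with a share of 50% or more left out a multiple of 3 in 52.0% of 246 junctions (interval 45.6% to 58.4%). Those with shares of 5% to 20% did so in 32.7% of 1402 (30.2% to 35.2%). Those under 1% did so in 38.4% of 560 (34.4% to 42.6%). The highest band lay above the 40.1% of inner exons beyond its counting interval, and the bands of 1% to 5% (34.3% of 1805, interval 32.1% to 36.5%) and 5% to 20% lay below it. Junctions were selected on reads, and reads also enter the share, so the bands are not independent of the rule.

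**Figure D3:**
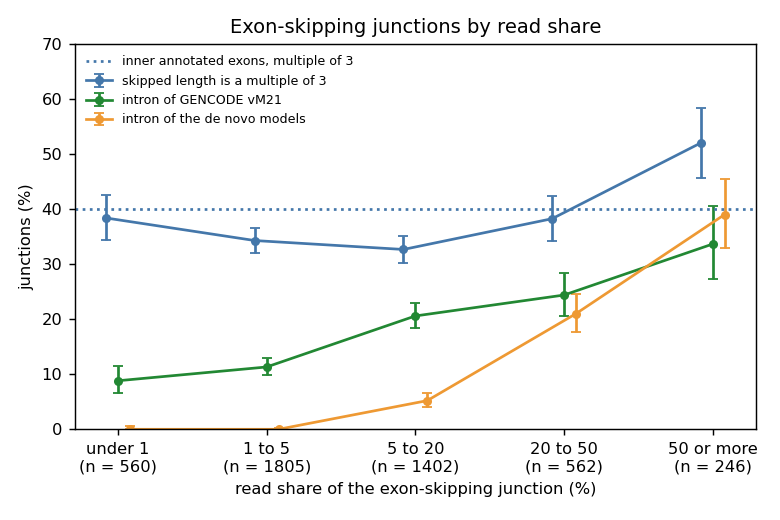
Exon-skipping junctions in 5 bands of read share (x axis, percent, n under each band) and the percentage of them (y axis) that skip a multiple of 3, are introns of GENCODE vM21 or are introns of the de novo models; the vM21 points are shares of those placed in it, bars are 95% exact binomial intervals, and the dotted line is the 40.1% of inner annotated exons with a length that is a multiple of 3. The vM21 and de novo percentages climb with read share, from 8.82% to 33.7% and from 0% to 39.0%. Frame keeping is highest, 52.0%, in the last band.

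The effect of a skip on the protein was read for 3056 junctions with a complete coding sequence in vM21. The annotated stop codon was kept in 1050 (34.4%). A new stop more than 50 nt before the last exon join arose in 1623 (53.1%), and a new stop nearer to the end of the transcript in 312 (10.2%). Among the 1994 whose skipped length was not a multiple of 3, the first of these new stops made up 80.8%. Their median read share was 4.04% (4.24% in R1 and 3.51% in R2), against 3.83% (3.84% and 3.71%) for the 1062 that skipped a multiple of 3. The difference had opposite directions in R1 and R2.

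Very short exons were more frequent among skipped exons than among all exons. Of the 2720 skipped coding exons, 53 (1.95%, interval 1.46% to 2.54%) were at most 27 nt long, beside 0.888% of coding inner exons. Their lengths were multiples of 3 in 35 of 53 (66.0%), close to the 66.4% of all coding inner exons of that size. The skips of these exons also had the highest read share, a median of 16.1% (17.5% in R1 and 13.7% in R2), and 21 of 53 took 20% or more of the reads. For exons of 61 to 120 nt the median share was 3.51% (3.60% and 3.20%), and 125 of 1195 took 20% or more. In that size class 32.4% of skipped exons were multiples of 3, beside 40.9% of coding inner exons.

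**Figure D4:**
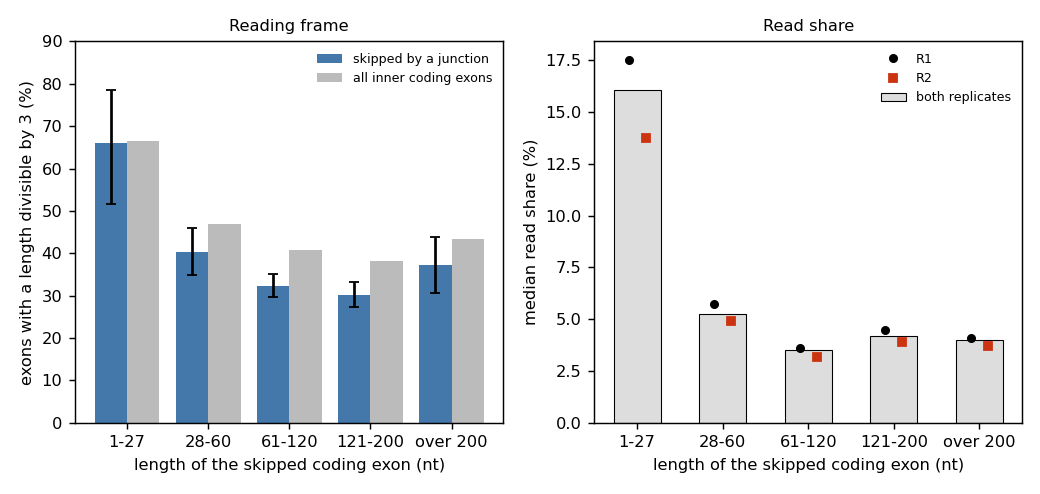
Skipped coding exons of 5 length classes (x axes, nt): the percentage with a length divisible by 3 (left, y axis; bars are 95% exact binomial intervals) beside all inner coding exons, and the median read share of the skipping junctions (right, y axis, percent) with the values of R1 and R2 as points. Exons of at most 27 nt stand out in both panels, at 66.0% and at a median share of 16.1%.

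The microexons described here were picked after their values were seen. Ptprz1, a receptor phosphatase of radial glia, skipped its 21-nt exon with 380 reads in R1 and 340 in R2, and the share was 54.6% and 64.9%. Srcin1, a synaptic regulator of Src kinase, skipped 24 nt with 152 and 234 reads and a share of 46.4% and 45.3%. Nbea, a neuronal vesicle protein, skipped 9 nt with 49 and 107 reads and a share of 99.0% and 99.5%. In Srcin1 and Nbea the share was nearly the same in both replicates although the reads were not.

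Others were skipped in a minority of reads. Dctn1, of the dynactin complex, skipped 18 nt with 160 reads in R1 and 102 in R2 and a share of 12.7% and 10.2%. Clasp2, which stabilises growing microtubules, skipped a 24-nt exon with 86 and 101 reads (share 16.1%) and an 18-nt exon with 104 and 55 reads, a share of 16.8% that was 23.1% in R1 and 11.1% in R2. Agrn, the organiser of the neuromuscular synapse, skipped 24 nt with 91 and 64 reads (share 7.75%). Robo1, a Slit receptor on growing axons, skipped 27 nt with 49 and 54 reads (share 5.66%). The exons printed above for Ptprz1, Srcin1, Dctn1 and Nbea all have lengths that are multiples of 3.

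Genes with many such junctions were few. The 4983 junctions within a gene fell in 3436 genes, of which 2434 had 1 and 59 had 5 or more. The most in any gene was 9, found in Eif4g3, Tulp4, E130307A14Rik and a gene with no symbol in vM21. Eif4g3 encodes a scaffold of translation initiation. Its 2 strongest skips had 100 reads in R1 and 83 in R2 (share 11.2%) and 108 and 67 reads (share 12.9%). Nrcam, a cell adhesion molecule of axons, had 8, the strongest with 109 and 147 reads (share 31.2%) over a 36-nt exon. In all, 888 junctions within a gene (17.8%) shared a site with another of them.

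Depth moved with whether a gene held a junction of this kind. Of 13675 genes with at least 2 annotated junctions past the thresholds, 3412 (25%) held one. When genes were ranked by reads on annotated junctions and cut into 4 equal parts, the share was 6.99% in the lowest part and 45.0% in the highest. Genes with a junction had a median of 6360 such reads over 12 annotated junctions, and all genes had 2427 over 9. The part of depth in the gene lists below was not tested, and their median reads are given for that reason. The part of the number of annotated junctions was not tested either. Its median per gene ran from 7 in the translation list to 30 in the adhesion list.

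Splicing regulators of neurons held these junctions most often among 7 lists. Of 29 such genes, 19 (65.5%) had one, beside 25% of all genes and 45.0% of the most-read part. The list had a median of 10391 reads on annotated junctions, and 17 of its genes were in that part. Nova1 skipped a 72-nt coding exon with 131 reads in R1 and 316 in R2 (share 22.1%). Ptbp2, a repressor of neuronal exons, skipped its 34-nt exon with 159 and 116 reads (share 6.23%). Rbfox1 skipped 81 nt with 103 and 105 reads (share 19.4%), and Rbfox2 skipped 51 nt with 115 and 140 reads (share 23.1%). Celf3 skipped 126 nt with 170 and 101 reads (share 3.49%), and in Qk a pairing of sites of 2 transcripts had 254 and 302 reads, 100% of those at one site and 29.0% at the other. The Rbfox2 share was also uneven, 8.12% and 38.1% at its sites. The median share over the list's 39 junctions was 2.50%, lower than the 5.60% of all junctions within a gene.

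General splicing factors held fewer. Of 40 SR protein and hnRNP genes, 15 (37.5%) had a junction, at a median of 20043 reads on annotated junctions. In this list 32 genes were in the most-read part, where 45.0% of all genes held one. Hnrnpu, a nuclear matrix protein, skipped 51 nt of untranslated sequence with 113 reads in R1 and 92 in R2 (share 93.7%). Its sites had only 231 and 208 reads over both replicates. The GENCODE vM21 transcript with this intron had 0.25 TPM in replicate 1 and 0.43 in replicate 2. These were 0.226% and 0.286% of its gene, so the Hnrnpu share describes these sites and not most of the gene's transcripts. Hnrnpk skipped a 44-nt coding exon with 19 and 7 reads (share 36.7%). Its sites had 111 and 52 reads, and the share was 42.52% in R1 and 27.96% in R2. U2af1, which reads the acceptor site, had a pairing of 2 transcripts with 41 and 25 reads (share 15.8%).

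In the list of the neuronal cytoskeleton, 21 of 44 genes (47.7%) held a junction, at a median of 37965 reads. As many as 40 of the 44 were in the most-read part, and the list was near the 45.0% of all genes there. Kif1b, a motor of synaptic vesicle precursors, skipped 42 nt with 227 reads in R1 and 269 in R2 (share 76.4%). Clasp1 skipped 108 nt with 96 and 156 reads (share 60%). Map4, a microtubule-associated protein, skipped 222 nt with 102 and 145 reads (share 16.4%), and Mapt (tau) skipped 87 nt with 7 and 9 reads. The 16 Mapt reads were 94.1% of the 17 at one site and 0.175% of the 9122 at the other, so their mean share of 47.2% describes neither site.

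For synapse and channel genes, 19 of 39 (48.7%) held a junction, at a median of 8741 reads. The most-read part, with 45.0% of all its genes holding one, had 25 of these 39. Camk2g, a calcium-dependent kinase, skipped 69 nt with 239 reads in R1 and 340 in R2 (share 74.4%). Cacna1a, the pore of P/Q-type calcium channels, skipped 36 nt with 159 and 228 reads (share 84.4%) and 97 nt with 106 and 128 reads (share 40.8%). Gria2, an AMPA receptor subunit, paired sites of 2 transcripts with 315 and 198 reads (share 59.5%). Dnm1, the neuronal dynamin, did so with 133 and 142 reads (share 62.4%). At their separate sites the shares were 53.6% and 95.2% in Camk2g and 90.2% and 34.5% in Dnm1.

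Adhesion and guidance genes held a junction in 16 of 39 cases (41.0%), at a median of 21420 reads, with 32 of them in the most-read part (45.0% of all genes there). Ptprs, a receptor phosphatase for proteoglycans, skipped 59 nt with 410 reads in R1 and 256 in R2 (share 43.7%), and Nfasc (neurofascin) skipped 2 exons of 270 nt with 63 and 113 reads (share 37.9%). The Ptprs skip took 79.3% of the reads at one site and 8.07% at the other, where there were more reads. Chromatin and transcription factor genes did in 17 of 42 list entries (40.5%). The entries Kmt2a and Mll1 name the same gene, so the list held 41 genes. These genes had a median of 13464 reads, and 30 of them were in the most-read part. Their most-read junction was the Kmt2e skip given above. The next was a pairing in Tcf7l2, a Wnt effector, with 101 and 113 reads and 80.8% of the reads at one site but 16.6% at the other. Translation and ribosome genes held one in 8 of 27 (29.6%), the lowest of the lists, beside 25% of all genes and 45.0% of the most-read part. Their median of 32322 reads was among the highest of the lists. Their median of 7 annotated junctions was the lowest, against 9 over all genes. In the most-read part were 18 of these 27. Rps9 skipped 123 nt with 6 and 10 reads, a share of 0.0978%.

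Joins between genes took most of the reads. The 1010 junctions between different genes held 602211 of the 826622 reads (72.9%), and 10 of the 11 junctions with the most reads were of this kind. These reads were concentrated in a few gene pairs, so the total does not describe the typical join. The strongest joins of the alpha globins, the beta globins and the Tuba1 genes had 129501, 67474 and 61878 reads. The median join had 30.5. Joins between genes were long, with a median of 80830 bases, against 4761 bases for junctions within a gene, and 430 of them (42.6%) spanned over 100 kb, against 1.91%. The exon sequence on both sides could be read for 749. In 451 of these (60.2%, interval 56.6% to 63.7%) at least 27 of 30 bases before the join and 27 of 30 after it were the same in both genes, and in 228 (30.4%) all 60 were. Within a gene this held for 3 of 4586 junctions (0.0654%). Joins with alike sequences had a median share of 41.9% (41.7% in R1 and 41.8% in R2), and the 298 others had 27.5% (27.3% and 26.5%).

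The globins gave the largest counts. Hba-a1 and Hba-a2, the adult alpha globin genes, were joined by a junction, chr11:32184129-32197079, with 59182 reads in R1 and 70319 in R2. The annotated intron of Hba-a2 at the same acceptor had 59250 and 70357 reads, and that of Hba-a1 at the same donor had 64678 and 77278. The join between the genes thus had nearly the same count as the Hba-a2 intron in each replicate. In the beta globins, chr7:110961299-110975961, the join of Hbb-bs to Hbb-bt had 34693 and 32781 reads and the intron of Hbb-bt had 34727 and 32804. All 60 bases around each of these joins were the same in both genes, as the printed Hbb sequences show.

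Tubulins followed the globins. The strongest join of Tuba1a to Tuba1b, both alpha tubulins of dividing and young neural cells, had 34015 reads in R1 and 27863 in R2. The annotated intron of Tuba1b at its acceptor had 28806 and 25514 reads, fewer than the join in both replicates, and that of Tuba1a had 198128 in all. A further join of this pair, chr15:98763627-98783881, had 22800 and 31559 reads with sequences not alike. Before that join 14 of 30 bases were the same, and after it 29 of 30. Tubb2b and Tubb2a, beta tubulins of neurons, were joined by 5084 and 4082 reads with a share of 19.7%, and 28 of the 30 bases before the join were the same. In Scd3 and Scd2, fatty acid desaturases, the join had 3098 and 3723 reads. The annotated Scd3 intron at its donor had 10 and 9 reads, so the unannotated junction held nearly all reads at that site.

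Near-equal counts recurred. Srp54c, one copy of the gene for the 54-kDa protein of the signal recognition particle, was joined to the copy Srp54a by 1331 reads in R1 and 1338 in R2, and the annotated Srp54a intron at the same acceptor had 1331 and 1337. Counts of the joins were compared with those of the weaker annotated junction at their sites where both sites had one in the list. Among 367 joins with alike sequences the median ratio was 1, and 125 (34.1%) lay within 5% of equality. Among 226 with sequences not alike the median was 0.661 and 7 (3.10%) lay within 5%. Among 4448 skips within a gene the median was 0.0590 and 24 (0.540%) lay within 5%. The sources used here do not give how reads that align equally well to several places were counted, and its part in these counts was not tested.

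**Figure D5:**
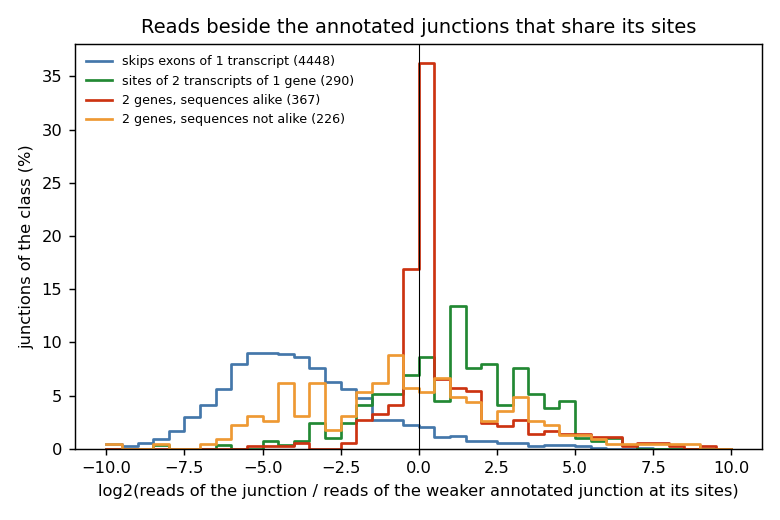
The log2 ratio of a junction's reads to those of the weaker annotated junction at its sites (x axis; values past its ends are drawn at the ends) as the percentage of junctions of each class (y axis, bins of 0.5), with the number in brackets; the vertical line marks equal reads. Joins between genes with alike sequences peak at equality, with a median ratio of 1, and skips within a gene lie below it, with a median of 0.0590.

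Other records of transcript structure were compared with these junctions. The de novo models were deposited in this same series, so they are not taken as independent of these libraries. How they treat joins of low read share was not tested. The authors' de novo transcript models held 358 of the 5993 as introns (5.97%), against 72.5% of annotated junctions past the thresholds. They held 344 junctions within a gene (6.90%) and 14 between genes (1.39%). No skip with a read share under 5% was in the models, 0 of 560 under 1% and 0 of 1805 between 1% and 5%, which allow up to 0.657% and 0.204% by the exact interval, while 96 of 246 (39.0%) at 50% or more were.

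GENCODE vM21, an annotation made years after the libraries, held as introns 752 of the 5267 junctions (14.3%) that could be placed in it by transcript identifier and intron length. Among skips this was 702 of 4272 (16.4%), and it rose from 8.82% (47 of 533) under a share of 1% to 33.7% (69 of 205) at 50% or more. The intervals of these bands, 6.55% to 11.5% and 27.2% to 40.6%, did not overlap. Joins between genes were in vM21 in 11 of 675 cases (1.63%).

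Transcripts that carry such an intron under a later annotation could be looked up in the mm10 tables for 69 junctions, and 34 of them reached 1 TPM in both replicates. Tma7, a small ribosome-associated protein, had the highest, with 79.0 TPM in replicate 1 and 39.3 in replicate 2. Rhbdl1, a rhomboid protease, had 24.1 and 18.4 TPM, 43.2% and 43.1% of its gene, where the junction's read share was 46.0%. Gria2 had 18.7 and 10.7 TPM, 12.6% and 9.92% of its gene, where the read share was 59.5%. The read share and the transcript's percentage were thus close in Rhbdl1 and far apart in Gria2. Across the 69, which share both libraries, Spearman's rho was 0.239.

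Genes that hold a junction of this kind differed little between the libraries. Of 3370 such genes whose mean reached 1 TPM, 50 (1.48%) differed 2-fold or more on the log2(TPM + 1) scale, beside 3.52% of all 15240 genes. Their median log2 ratio of replicate 2 to replicate 1 was -0.06 (TPM) and -0.12 (FPKM), and that of all genes was 0.01 (TPM). Median levels were 36.6 and 35.9 TPM. The junctions of these genes had passed the read and reproducibility thresholds, and the genes were more deeply read. The lower percentage is therefore not a separate finding, and the part of selection and depth in it was not tested.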

How the data were processed

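Junction read counts of 2 replicates on mm9 were deposited by the authors, beside a deposited fraction that is low where replicates reproduce a junction. Which aligner and caller made them, and how they handled reads with several alignments, are points not given in the sources used here. Replicate counts stood inside the junction names, so each could be used although only a summed count had been planned for. The deposited expected counts, TPM and FPKM per gene and transcript were estimated on mm10 with GENCODE M4, per the deposited text notes. Introns were derived from consecutive exons of the deposited Ensembl 65 and de novo (Cufflinks, per the file's source column) exon tables.

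A junction's read share was the mean, over its start and its end, of its percentage of all junction reads there. If several transcripts held both sites, the one with the fewest exons between was used. Symbols, coding ranges and sequences came from GENCODE vM21, by identifier and with equal inner exon lengths; 5267 of 5993 junctions were placed. All genes of the 7 lists matched. Members and lists were chosen with earlier results of these data known. Named junctions were the 25 with most reads within a gene, the 15 highest shares with 50 or more reads, the 10 with most exons skipped, the 10 longest, the 15 most-read joins of genes, the genes with most junctions, the list members, the threshold neighbours and the highest later transcripts, of which a part is named; the microexon examples and Eif4g3's skips were picked after their values were seen. A pseudocount of 1 was added to TPM. No comparison between conditions was possible. Depth is given as junction reads and expected counts; intervals are exact binomial, 95%. The classification recovered 100% of 400 skips, 200 joins and 800 annotated junctions of a simulated annotation. That annotation had a single transcript per gene, so pairings of sites of 2 transcripts and overlapping genes were not covered. Software was matplotlib 3.10.9, scipy 1.17.1, pandas 2.3.3 and numpy 2.4.6 under Python 3.11.15.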

Additional observations from a re-analysis of the deposited data

How the results depend on the processing

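Stricter thresholds kept stronger junctions. With minimums of 20 and 50 reads, the number of junctions was 3253 and 1263, the share within a gene 79.6% and 71.0%, the skips among these 90.6% and 87.5%, multiples of 3 37.8% and 40.8%, the median read share 13.9% and 27.7%, de novo introns 8.76% and 12.7%, and vM21 introns 18.3% and 23.7%. With a reproducibility value of 0.01 or less, 81.3% were within a gene, 90.8% of these were skips, the median read share was 10.7%, and 7.41% and 16.9% were de novo and vM21 introns. With sites of protein-coding genes only, 89.5% were within a gene and the median read share was 6.46%. The median read share was 6.52% at the start only, 6.82% at the end only and 5.60% for junctions within a gene, of which 16.1% were vM21 introns. The median log2 difference of host genes on the FPKM scale was -0.12. The junctions-within-a-gene settings, and requiring 10 reads in 1 replicate alone (leaving out the other), were chosen after seeing the data. The latter gave 3098 to 3699 junctions, 78.2% to 81.8% within a gene, 89.6% to 91.1% skips, 35.9% to 39.9% multiples of 3, a median share of 12.2% to 15.1%, 7.62% to 9.13% de novo and 17.1% to 18.4% vM21 introns. Of 60 alternatives, 22 stayed within and 38 went beyond the counting interval, the replicate SD or 1.5 times the count. No paired analysis was possible because there was 1 group. Low reads limit the weakest junctions: 45.7% had under 20 reads, so a read share there rests on few reads, and the libraries cannot show differences between animals or stages.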
